A study of Homo sapiens with 2 samples.

Results

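The imprinted region of human chromosome 14 that runs from DLK1 to DIO3 was described by its CpG methylation and its accessible sites in H9, an established human embryonic stem cell line. It was taken as the RefSeq stretch from the start of DLK1 to the end of DIO3 with 20 kb added on each side, chr14:100706892-101583452 on GRCh38, which is 876.561 kb long. Its named members were 6 genes, DLK1, MEG3, RTL1, MEG8, MEG9 and DIO3, of 27212 genes with an annotated start, and 11 accessible peaks of the 46980 that the authors listed. The stretch held 14539 listed CpGs and 124 annotated genes, 54 of them microRNA genes. The rule itself uses position and no measured value.

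In the assay, ATAC-Me, a transposase cuts open chromatin and tags the fragments, whose unmethylated cytosines are converted before sequencing, so that 1 library holds accessibility and methylation. There was 1 group of undifferentiated, untreated H9 cells with 2 replicates, grown on Matrigel in mTeSR medium, and no second condition. The labels do not say whether the replicates were separate cultures, so their spread may be technical. The CpG reads numbered 29270697 in replicate 1 and 52758656 in replicate 2, and the region took 8182 and 21809 of them. Because reads gather in open chromatin, closed stretches rest on few reads.

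Imprinted genes are read from the copy inherited from only 1 parent. In this region DLK1, RTL1 and DIO3 are known to be expressed from the paternal copy, and the noncoding RNAs MEG3, MEG8 and MEG9, with the small nucleolar RNAs and most of the microRNAs, from the maternal copy. Control elements between DLK1 and MEG3 and at the MEG3 start are known to be methylated on the paternal copy and unmethylated on the maternal copy. An intact imprint therefore gives an average near 50% when both copies are sampled alike. Whether both copies were sampled alike in these libraries, where reads gather in open chromatin, was not tested. The 50% line is thus a reference and not the measured level of an intact imprint here. A reading near 100% there is known from some pluripotent cell lines as hypermethylation of MEG3. The deposited values are averages per CpG, and no parental copy could be told from the other.

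The start sequences of MEG3 and DIO3 are shown because MEG3 carries the main question and DIO3 is the best covered unmethylated start beside it. Both are RefSeq promoters of GRCh38.p14 on the plus strand, 250 bases before to 50 bases after the start, with each CpG in capitals. The first is chr14:100825858-100826157 and the second chr14:101561245-101561544.
MEG3: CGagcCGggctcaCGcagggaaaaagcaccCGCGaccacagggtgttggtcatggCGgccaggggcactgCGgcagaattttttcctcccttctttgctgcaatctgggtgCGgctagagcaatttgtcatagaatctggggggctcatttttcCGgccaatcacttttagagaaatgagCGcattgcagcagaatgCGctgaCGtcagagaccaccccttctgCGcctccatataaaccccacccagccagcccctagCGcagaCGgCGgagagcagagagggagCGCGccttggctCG
DIO3: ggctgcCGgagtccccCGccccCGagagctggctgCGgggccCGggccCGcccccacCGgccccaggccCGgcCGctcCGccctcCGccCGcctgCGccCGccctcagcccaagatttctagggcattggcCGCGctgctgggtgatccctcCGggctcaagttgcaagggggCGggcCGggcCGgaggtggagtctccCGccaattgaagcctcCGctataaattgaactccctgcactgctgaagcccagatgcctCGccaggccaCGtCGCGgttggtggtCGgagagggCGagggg
The MEG3 sequence holds 19 CpGs and the DIO3 sequence 28, against a median of 13 over 27195 RefSeq promoters of this length. In replicate 2, 46 of 46 reads at the MEG3 CpGs shown were methylated, and replicate 1 had 0 reads there. At the DIO3 CpGs shown, 4 of 287 reads were methylated in replicate 1 and 21 of 611 in replicate 2. The CpG-dense start of MEG3 thus read fully methylated in the replicate that covered it, while the denser start of DIO3 was nearly free of methylation in both.

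The main question for the region was whether MEG3, a maternally expressed long noncoding RNA, reads near 50% or fully methylated at its start (100826108, plus strand, gene body to 100861026). Within 500 bp of the start, 3 of 5 reads were methylated in replicate 1 (60%), and 83 of 83 in replicate 2 (100%), a mean of 80.0% ± 28.3 (SD, n = 2). Replicate 1 cannot answer, since its 95% Wilson interval ran from 23.1% to 88.2%, whereas the interval of replicate 2 began at 95.6%. Replicate 2 therefore read close to full methylation and not near 50%. These intervals cover counting error only and are too narrow, because a read over neighbouring CpGs enters once for each CpG. With only the deepest CpG of each 150 bp counted, so that a fragment is rarely counted again, 18 of 19 reads of both replicates were methylated (94.7%, Wilson interval 75.4% to 99.1%), still above 50%.

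The single CpGs gave the same picture. All 40 CpGs that replicate 2 covered within 500 bp of the MEG3 start were fully methylated, including the 12 with at least 3 reads, where a mixture of methylated and unmethylated copies would be most visible. Of the 5 that replicate 1 covered, each with 1 read, 3 were methylated and 2 were not. In the wider window of 1000 bp on each side the replicates stood at 82.6% of 23 reads and 96.0% of 149 reads, a mean of 89.3% ± 9.45 (SD, n = 2). At 2000 bp on each side they stood at 78.6% of 140 reads and 82.9% of 475 reads, a mean of 80.8% ± 3.09 (SD, n = 2). The widest window was thus the best covered, and the replicates lay closest together there. In it, 69 CpGs had at least 3 reads in replicate 2. Of the 14 that lie after the start, 14 were fully methylated. Of the 55 that lie before it, 26 were fully methylated, 29 held methylated and unmethylated reads together and 0 were free of methylation.

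**Figure D1:**
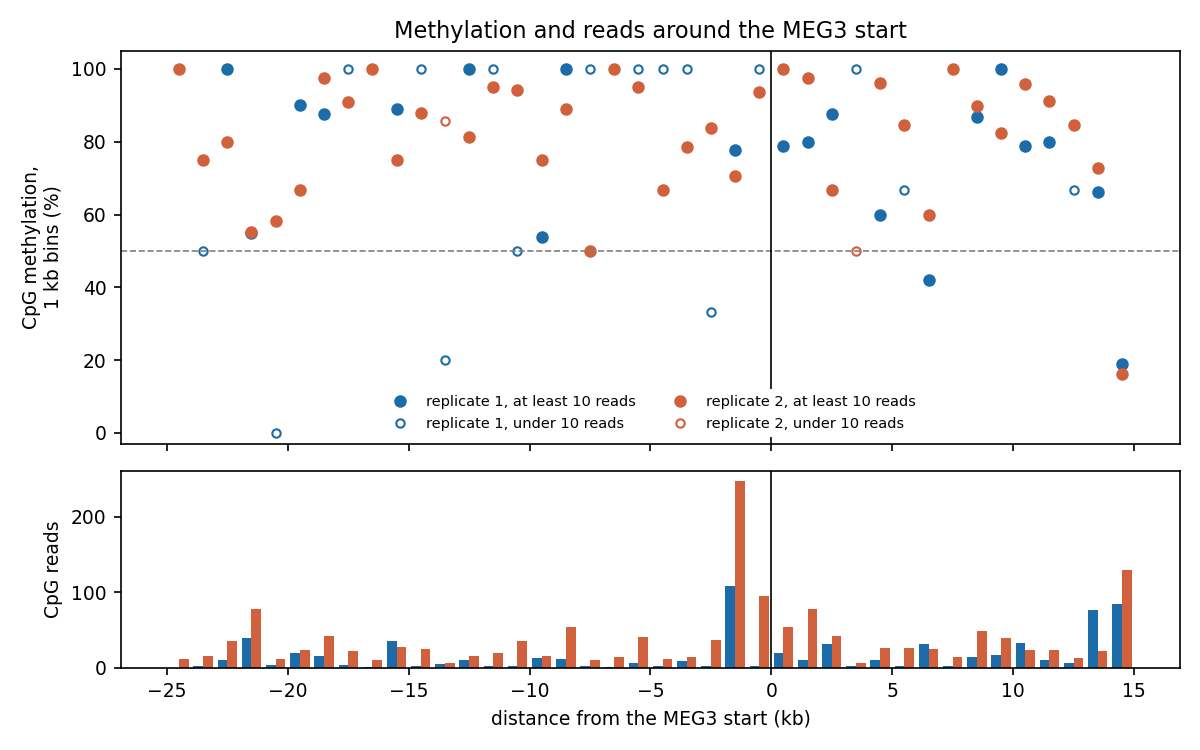
The upper panel plots the percent of CpG reads that were methylated in 1 kb bins against distance from the MEG3 start in kb, by replicate, with open circles for bins under 10 reads and a dashed line at 50%. The lower panel plots the CpG reads per bin. Most bins with at least 10 reads lie above 50%, the bin from 2 to 1 kb before the start holds the most reads (108 and 248), and the bin 14 to 15 kb after it falls to 19% and 16.3%.

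The upstream side, which held all 29 mixed CpGs, also holds the accessible site nearest to MEG3. That peak, chr14:100824263-100824450, has its summit 1762 bp before the start and read 77.8% of 63 reads in replicate 1 and 59.2% of 130 in replicate 2, a mean of 68.5% ± 13.1 (SD, n = 2). With all reads counted, its level lay between 50% and 100% in both replicates. With only the deepest CpG of each 150 bp, it read 100% of 9 reads in replicate 1 and 42.9% of 14 in replicate 2. Both together gave 65.2%, with a Wilson interval from 44.9% to 81.2%, which includes 50%. The 1 kb bin that holds it, 2 to 1 kb before the start, read 77.8% and 70.6%, whereas the bin just before the start read 93.7% of 95 reads in replicate 2, with 3 reads in replicate 1. Just after the start, the bin from 0 to 1 kb read 78.9% of 19 reads in replicate 1 and 100% of 54 in replicate 2. In averages per CpG, reads that differ among cells and reads that differ between parental copies cannot be told apart.

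The MEG3 start sequence holds 1 match, searched on both strands, to the cAMP response element TGACGTCA, bound by CREB factors, and 1 match to TGCCGC, the motif of the imprint-protecting zinc finger protein ZFP57. The motifs do not overlap in letters, and they occur in 1.95% and 16.5% of the 27195 promoters. The start sequences of RTL1, MEG9 and DIO3 hold neither. The CpG inside the response element lies 47 bp before the MEG3 start and had 1 read, methylated, in replicate 2 and 0 in replicate 1. A match describes the letters only.

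The stretch between DLK1 and MEG3, 87.883 kb long, was highly methylated. It read 79.7% of 755 reads in replicate 1 and 82.7% of 2009 in replicate 2, a mean of 81.2% ± 2.12 (SD, n = 2). The intergenic control element is known to lie in this stretch upstream of MEG3, and its borders were not given in the annotation used. The part from 10 to 20 kb before the MEG3 start read 86.9% of 99 reads and 87.8% of 230 reads, a mean of 87.3% ± 0.677 (SD, n = 2), and held no peak. Over both replicates its Wilson interval ran from 83.5% to 90.7%. As an average, neither replicate was near 50% there, and the difference between them was under 1 point. Just upstream of that part, the 1 kb bin from 22 to 21 kb before the start read 55% of 40 reads in replicate 1 and 55.1% of 78 in replicate 2 (both together 55.1%, Wilson interval 46.1% to 63.8%). The bin after it, from 21 to 20 kb, had 4 and 12 reads and read 43.8% with both together. The stretch was thus not uniform. With all reads counted, its best covered bin in the 25 kb before MEG3 outside the last 2 kb, from 22 to 21 kb, lay near 50% in both replicates. With only the deepest CpG of each 150 bp, that bin read 33.3% of 15 reads in replicate 1 and 50% of 28 in replicate 2. Both together gave 44.2%, with a Wilson interval from 30.4% to 58.9%. Whether the bin belongs to the control element was not tested.

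Among the paternally expressed genes, DLK1 and DIO3 were unmethylated at their starts and RTL1 was not. DLK1 encodes a transmembrane protein related to Notch ligands, which restrains adipocyte differentiation. Within 500 bp of its start (100726892, plus strand) the 114 CpGs read 2.78% of 72 reads in replicate 1 and 11.3% of 408 in replicate 2, a mean of 7.03% ± 6.01 (SD, n = 2). The levels were under 20% in both replicates although no peak was called close by, the nearest summit being 18370 bp away. The DLK1 body read 58.7% of 172 reads and 60.2% of 650 reads. On its upstream side the unmethylated block was short, since the window centred 751 bp before the start read 66.7% of 12 reads in replicate 1 and 97.7% of 44 in replicate 2. Where the block ends inside the gene was not located.

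DIO3 encodes the deiodinase that inactivates thyroid hormone. Within 500 bp of its start (101561495, plus strand) it read 4.27% of 445 reads in replicate 1 and 9.65% of 1057 in replicate 2, a mean of 6.96% ± 3.80 (SD, n = 2). It was the best covered start of the 6 and the only one with a peak summit within 1000 bp, 104 bp away. That peak, chr14:101561117-101561524, read 1.09% of 368 reads and 2.90% of 794 reads, a mean of 1.99% ± 1.28 (SD, n = 2). Methylation returned inside the gene, where the 500 bp window centred 646 bp after the start read 85.0% of 20 reads in replicate 1 and 90.2% of 123 in replicate 2. The low stretch at the start was thus bounded by a highly methylated window in the gene itself. The antisense neighbour DIO3OS read 1.60% of 313 reads and 2.73% of 587 reads within 500 bp of its start (101560422, minus strand), so the unmethylated block covered both starts.

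RTL1 derives from a retrotransposon and is known for its part in the placenta. Its start (100903722, minus strand) lies inside MEG8, so its reads cannot be given to either gene alone. Within 500 bp it read 85.7% of 14 reads in replicate 1 and 75.9% of 87 in replicate 2, a mean of 80.8% ± 6.97 (SD, n = 2). A CpG-dense window centred 919 bp upstream of that start, chr14:100904392-100904891, was unmethylated instead, with 2.60% of 77 reads and 4.17% of 168 reads methylated, a mean of 3.38% ± 1.11 (SD, n = 2). The level at the RTL1 start therefore depends on the window, with 38.5% and 36.3% at 1000 bp on each side, where that block enters it. The RTL1 body read 58.2% of 349 reads and 65.6% of 831 reads.

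The maternally expressed noncoding RNAs beyond MEG3 read high at their starts, on few reads. MEG8, a host of small nucleolar RNAs, had 0 reads in replicate 1 and 14 in replicate 2 within 500 bp of its start (100889649, plus strand), of which 78.6% were methylated (Wilson interval 52.4% to 92.4%). The lower end of that interval is close to 50%, so this start alone decides little. MEG9 (start 101069911, plus strand) read 100% of 10 reads and 92.3% of 26 reads, a mean of 96.2% ± 5.44 (SD, n = 2). Along the gene bodies MEG3 read 66.7% of 484 reads and 77.5% of 1121 reads, MEG8 52.6% of 536 and 58.0% of 1261, and MEG9 74.6% of 67 and 69.6% of 112. The bodies read lower than the starts of MEG8 and MEG9 in every replicate with reads at both.

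**Figure D2:**
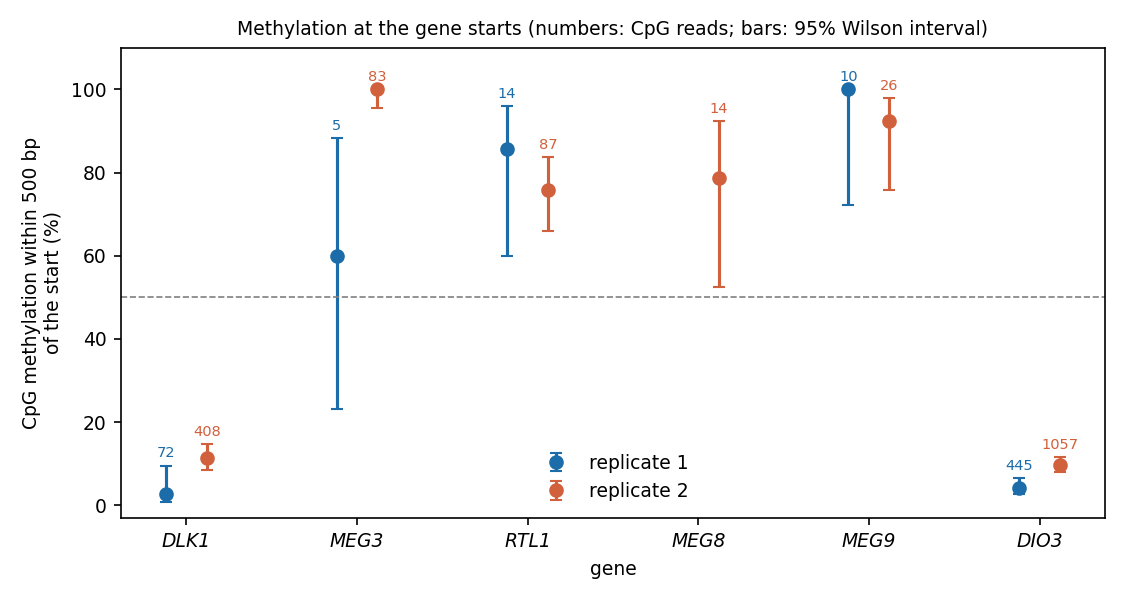
Points give the percent of CpG reads methylated within 500 bp of each gene start, by replicate; bars are 95% Wilson intervals of counting error, numbers are CpG reads, and the dashed line marks 50%. DLK1 and DIO3 sit below 20% in both replicates, while MEG3, RTL1, MEG8 and MEG9 sit at 60% or above wherever they had reads.

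DLK1 and DIO3 were the 2 members with at least 20 reads in each replicate, and both were under 20%. This class held 85.1% of the 18867 gene starts with as many reads, so an unmethylated start is the usual reading and says little about these 2 genes. Starts over 80% in both replicates made up 4.13% and starts between 20% and 80% made up 6.49%. The other 4 members were too thinly covered in replicate 1 to enter this comparison. Replicate 2 was higher than replicate 1 at 81.3% of starts, and Fisher's exact test with Benjamini-Hochberg adjustment called the replicates different at 26.5% of them. By this exact test DIO3 was called (5.38 points higher in replicate 2, adjusted p = 0.00375) and DLK1 was not (adjusted p = 0.0914). The DIO3 difference turned round when only the deepest CpG of each 150 bp was counted (8.89% in replicate 1 and 6.36% in replicate 2, adjusted p = 1 by Fisher's exact test).

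The small RNAs of the region come mainly from long maternally expressed transcripts. The 42 microRNA genes from MIR379 to MIR656 lie in a stretch that read 92.0% of 275 reads in replicate 1 and 90.8% of 1038 in replicate 2, a mean of 91.4% ± 0.815 (SD, n = 2). The cluster of 9 SNORD113 and 31 SNORD114 genes, which encode box C/D small nucleolar RNAs, read 84.2% of 76 reads and 90.4% of 301 reads. The 5 microRNA genes antisense to RTL1, from MIR431 to MIR136, read 95.7% of 23 reads and 90.4% of 219 reads. All these stretches were high in both replicates, and none held a peak. Around single microRNA genes coverage was thin, with a median of 5 and 23.5 reads within 500 bp.

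MIR369, MIR410 and MIR1247 were the 3 of the 54 microRNA genes with at least 20 reads in each replicate. Their RefSeq mature sequences are shown as these are the microRNAs the values rest on, with the seed, bases 2 to 8, in capitals.
hsa-miR-369-5p: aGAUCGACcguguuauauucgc
hsa-miR-369-3p: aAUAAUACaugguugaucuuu
hsa-miR-410-5p: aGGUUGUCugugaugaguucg
hsa-miR-410-3p: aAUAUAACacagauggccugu
hsa-miR-1247-5p: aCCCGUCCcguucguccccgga
hsa-miR-1247-3p: cCCCGGGAacgucgagacuggagc
No seed is shared among the 6. The methylation within 500 bp was 88.5% of 26 reads and 94.2% of 86 reads at MIR369, and 88.5% of 26 and 95.3% of 64 at MIR410. These neighbouring genes have overlapping windows, so their values share reads and are not separate measurements. At MIR1247, which shares its start with DIO3OS, it was 2.01% of 299 reads and 2.47% of 649 reads. MIR1247 was the only microRNA gene of the 54 below 60% with both replicates pooled, and the next lowest, MIR134, read 78.3%.

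**Figure D3:**
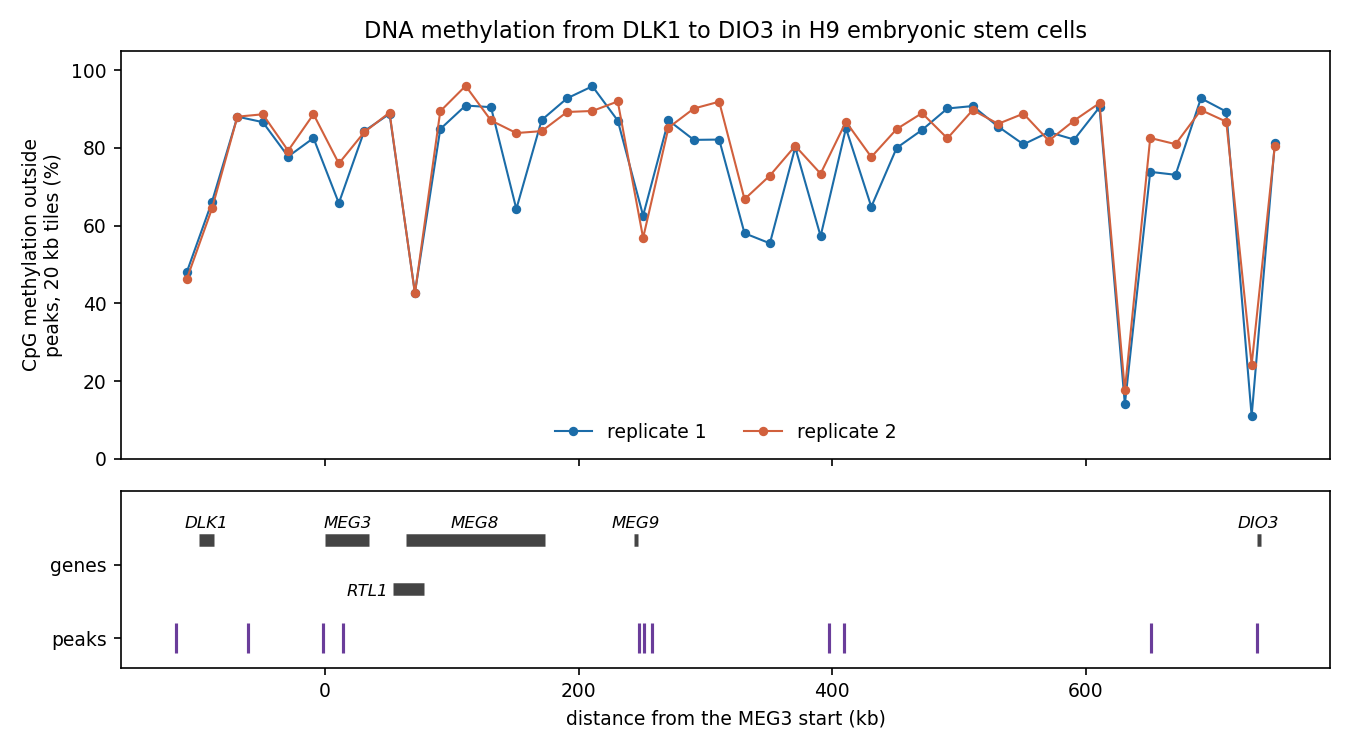
The upper panel plots CpG methylation outside peaks in 20 kb tiles against distance from the MEG3 start in kb, by replicate; the lower panel marks the 6 genes and the 11 peaks. Both replicates are over 80% in 28 of the 43 tiles with enough reads, and dip together at the DLK1 side, at RTL1 and MEG8 (42.7% and 42.6%), 630.8 kb after MEG3 (14% and 17.6%) and at DIO3 (11% and 24.2%).

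Outside peaks the whole region was close to the genome around it. It read 61.3% in replicate 1 and 68.5% in replicate 2, against 61.1% and 70% for all other autosomal CpGs outside peaks. The difference was 0.258 points in replicate 1 and -1.53 points in replicate 2, a mean of -0.634 ± 1.26 (SD, n = 2), which is within the spread between replicates. An exact sign-flip test over 2 replicates cannot go below p = 0.5, so no call was possible. Along the region the levels ranged from 15.8% to 93.4% over the tiles, a far wider span than the difference between the replicates in most of them. With peaks included, the region read 53.6% of its reads in replicate 1 and 63.6% in replicate 2, the stretch from MEG9 to DIO3 (488.557 kb) 48.8% and 60.9%, and the DIO3 body 30.4% and 53.7%. The flanks were lower than the region and than the stretch from MEG9 to DIO3, at 34.1% and 39.8% in the 20 kb before DLK1 and at 22% and 28.4% in the 20 kb after DIO3. The tile with the lowest mean, 630.8 kb after MEG3 and before DIO3, read 14% of 557 reads and 17.6% of 1176 reads; in replicate 1 alone the tile at DIO3 was lower, with 11% of 776 reads.

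Of the 11 accessible peaks, 8 had a signal below the autosomal median. The authors' peak signal ranged from 206 to 1279 with a median of 441, against 541 over all autosomal peaks. Of the 6 gene starts only that of DIO3 had a summit within 1000 bp, and 2 further peaks lay at MEG3, 1762 bp before its start and inside its body. The body peak, chr14:100840276-100840467, is 14.2 kb after the MEG3 start and read 0% of 13 reads in replicate 1 and 5.0% of 40 in replicate 2. The 2 MEG3 peaks thus differed widely, the upstream one at 68.5% and the one in the body at 2.50% on average, with no overlap between replicates.

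Of the 10 peaks with at least 10 reads in each replicate, 6 were under 20% in both, 3 lay between 20% and 80% in both and 0 lay over 80%. Among the 40703 autosomal peaks with as many reads, 70.2% were under 20%, 20% lay between and 0.391% were over 80%, so these counts are near the background. The 3 peaks between were the one upstream of MEG3, a peak 14086 bp after the MEG9 start and a peak 409 kb after the MEG3 start. The peak beyond MEG9, chr14:101083872-101084068, was the only one between 40% and 60% in both replicates, a class with 3.68% of autosomal peaks. It overlaps no annotated gene and read 50% of 48 reads in replicate 1 and 49.1% of 114 in replicate 2, a mean of 49.6% ± 0.620 (SD, n = 2). The 6 peaks under 20% include, beside those at DIO3, LOC105370670 and the MEG3 body, a peak 18370 bp before the DLK1 start (10.1% of 228 reads and 6.81% of 235), one 38008 bp after it (9.76% of 41 and 18.4% of 49) and one 84302 bp before the DIO3 start (11.1% of 108 and 10.9% of 137). The peak 18370 bp before DLK1 had the highest signal of the 11. The remaining measured peak, at the far end of LOC105370670 beyond MEG9, read 13.3% of 60 reads and 20.3% of 158. Fisher's exact test called the replicates different at 7.89% of autosomal peaks and at 1 of these 10. That peak, chr14:101077525-101077832, lies at the start of the noncoding gene LOC105370670 (101077656, minus strand in RefSeq) and read 0.327% of 306 reads and 4.88% of 246 reads (adjusted p = 0.0106 by the same exact test).

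**Figure D4:**
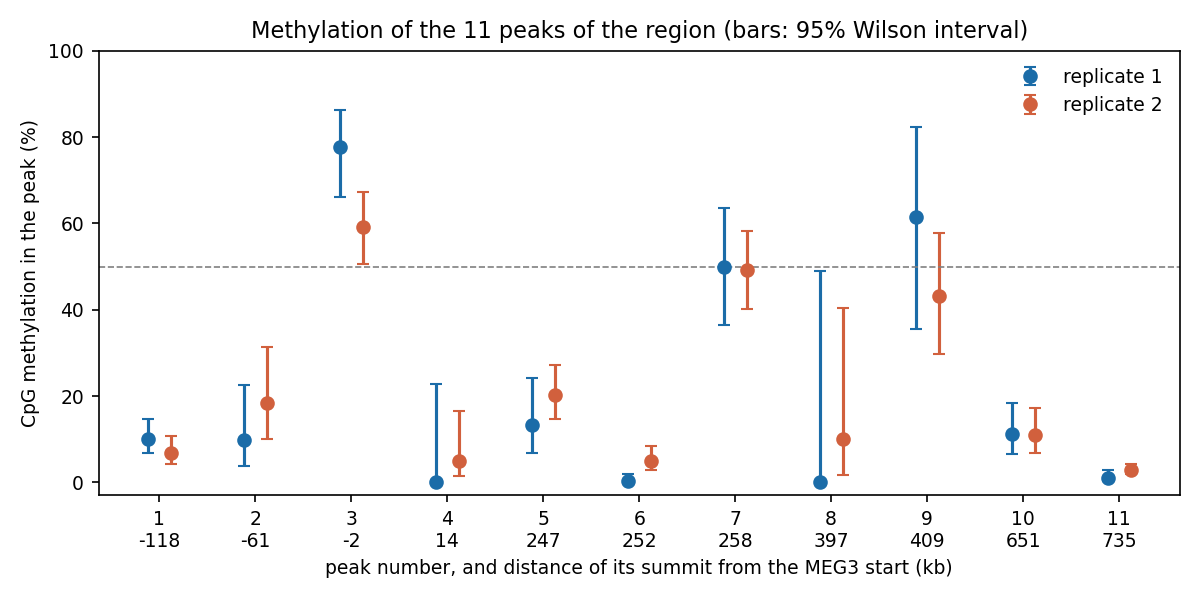
Points give the percent of CpG reads methylated in each peak, numbered from the DLK1 side, with the distance of the summit from the MEG3 start in kb, by replicate; bars are 95% Wilson intervals and the dashed line marks 50%. Peak 7 lies on the line in both replicates, peak 3 before MEG3 lies above it, and peak 11 at DIO3 lies near 0%; peak 8 had 4 and 10 reads and was left out of the counts.

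The members were set beside 25 genes known to be imprinted elsewhere in the genome. These had 43 distinct starts, of which 32 had at least 20 reads in each replicate. Of the 32, 21 were under 20% in both replicates, 3 lay between 20% and 80% in both, 0 were over 80%, and 8 fell in different classes in the replicates; the median was 8.60%. The starts between were at PLAGL1, a zinc finger gene (32.7% and 27.2%, mean 30% ± 3.89, SD, n = 2), at INPP5F, an inositol phosphatase gene (30.2% and 28.4%, mean 29.3% ± 1.23, SD, n = 2), and at GNAS, which encodes a G protein subunit (20% and 21.1%, mean 20.5% ± 0.758, SD, n = 2). Their share, 9.38%, stands beside 6.49% of all gene starts. The starts whose replicates fell in different classes made up 25% of the 32, beside 4.29% of all gene starts, a difference that was not tested. The shares are not alike, since all gene starts had medians of 0.850% and 1.86%, far below the 20% limit. The gap between replicates in these 8 starts was smallest at DIRAS3 (18.2% and 22.5%), on either side of that limit. It was largest at a second start of GNAS (53.3% and 18.6%). Of the 32 starts, the lowest was one of GRB10, an adaptor of growth factor receptors, at a mean of 0.432%. The highest was that second start of GNAS (mean 36.0% ± 24.6, SD, n = 2). The 32 starts belong to 20 genes, some of which entered with more than 1 start. Starts that carry an imprint were not told apart from other starts of the same genes. As a mixed group the listed starts did not read near 50% in these libraries. An average near 50% was not the usual reading of a listed start that had enough reads. How a start with an intact imprint reads in these libraries was not tested.

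**Figure D5:**
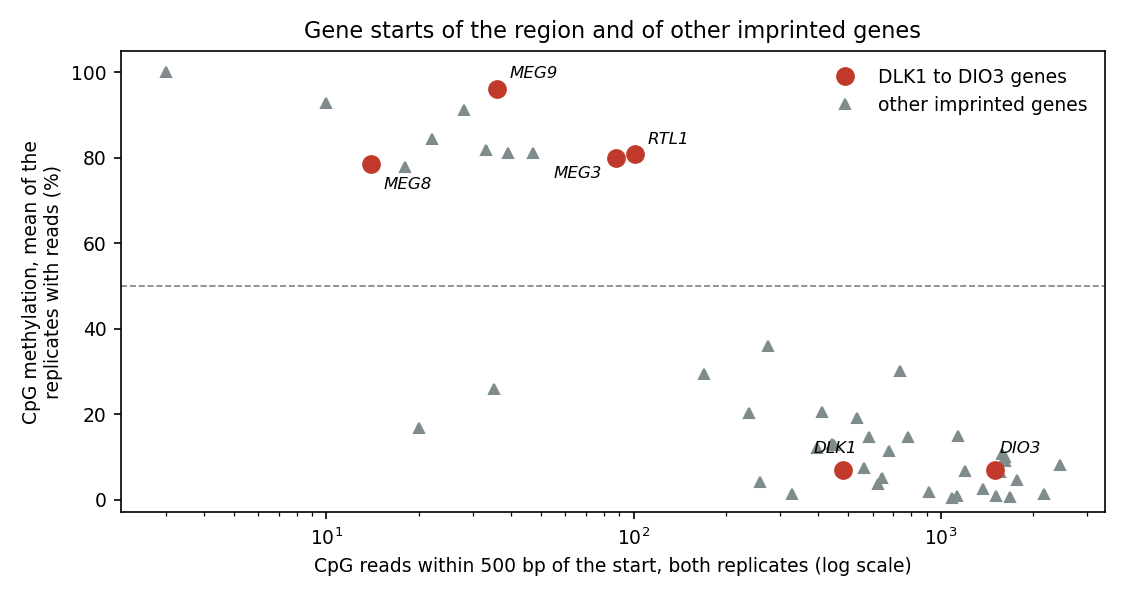
Each point is a gene start, with CpG reads of both replicates within 500 bp on a log axis and the mean percent of methylated reads on the other, for the 6 members (circles) and the other imprinted genes (triangles); the dashed line marks 50%. MEG3, RTL1, MEG8 and MEG9 lie at 78.6% or above with few reads, and DLK1 and DIO3 lie near 7% with more.

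High methylation and few reads went together among the members. The 4 starts at 78.6% or more had 14 to 101 reads over both replicates, while DLK1 and DIO3 had 480 and 1502. The part that coverage has in these levels was not tested. The cell type was checked with markers of pluripotent cells: the starts of NANOG, SOX2, LIN28A and SALL4 were under 20% in both replicates with a peak summit at each, and DNMT3B read 46.8%. Of 5 measured starts of fibroblast, blood and keratinocyte markers, 2 were over 80%, KRT5 and an upstream start of LCK, 2 were under 20% (COL1A2 and the second start of LCK), and COL1A1 averaged 28.5%.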

How the data were processed

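ATAC-Me libraries of 1 group of H9 cells with 2 replicates were used. The deposited CpG tables, 1 per replicate and without a header, give a methylation fraction (0 to 1) and the count of reads over the CpG. The deposited peak list, 1 for the group, gives each peak's score (at most 1000), signal, summit and −log10 q-value. The submitters' processing notes name Trim Galore and Genrich on hg38, or GRCh38; the mapper, the methylation caller, any removal of duplicates and how replicates entered the peak list are not given in the sources. Failed conversion would read as methylation.

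Methylated reads were the fraction times the reads (all whole within 0.001). A level is methylated reads over reads, per replicate and then averaged; CpGs without reads were left out, and those marked as altered by the authors' caller were kept. Positions were raised by 1 to count from 1, after which 100% of CpGs in plus-strand RefSeq promoter sequences of chromosome 14 were found. Starts came from RefSeq promoter tables (GRCh38.p14), within 500 bp of each other joined; those of DLK1, MEG8 and 15 genes used for comparison came from gene ends and the known direction. Promoter sequences matched 4 of the 6 members, and microRNA sequences all 54 microRNA genes. Tests were two-sided. Fisher's exact test was run for each start (at least 20 reads in each replicate) and peak (at least 10), with Benjamini-Hochberg adjustment over the whole table at 0.05, in Python 3.11.15 with scipy 1.17.1 and pandas 2.3.3, and was tested on simulated data. p-values over reads are too small, since CpGs on 1 fragment share it. The simulated reads were independent, so the simulation does not cover this sharing. Reads are not independent molecules, and depth limits values outside peaks most.

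Named genes were the 6 members, all peaks, covered CpG-dense windows (500 bp with at least 20 CpGs), small RNA clusters, and from the imprinted list those lowest, highest and nearest to 50%; LOC105370670, DIO3OS and single microRNA genes were added after values were seen. The members and lists were chosen with earlier results of these data known. H19 and POU5F1 count among the listed genes but had 0 reads in the tables used, so their levels were not analysed here. Alternatives covered windows, read minimums, weighting, the deepest CpG, class limits and each replicate left out.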

Additional observations from a re-analysis of the deposited data

How the results depend on the processing

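Depth sets the main limit: replicate 1 had 5 reads within 500 bp of the MEG3 start and 0 at MEG8, and no value could be given for MEG8 with CpGs of at least 5 reads. With 1 replicate left out the starts ranged from 2.78% to 11.3% (DLK1), 60% to 100% (MEG3), 75.9% to 85.7% (RTL1), 92.3% to 100% (MEG9) and 4.27% to 9.65% (DIO3), with 78.6% for MEG8; the stretches ranged from 79.7% to 82.7% (DLK1 to MEG3), 86.9% to 87.8% (10 to 20 kb before MEG3) and 53.6% to 63.6% (whole region), and region minus rest from -1.53 to 0.258 points. No paired analysis was possible because there is 1 group, with no second group whose replicates could be paired; region minus rest was taken within each replicate.

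Under other windows and weights MEG3 kept a mean of 75.0% or more. The 75.0% came with the deepest CpG of each 150 bp, on 2 reads in replicate 1 and 17 in replicate 2. At 250 bp and with CpGs of at least 5 reads replicate 1 had 0 reads, so the value is replicate 2 alone. The starts of DLK1, RTL1, MEG9 and DIO3 moved by more than 1 SD. DLK1 moved to 16.8% (1000 bp) and 25.5% (2000 bp, an alternative added after seeing the data). RTL1 moved to 90.7% (250 bp), 37.4% (1000 bp), 33.7% (2000 bp) and 88.2% (CpGs of at least 5 reads). MEG9 moved to 90.0% (250 bp), and DIO3 to 18.6% (CpGs weighted equally) and 3.06% (at least 5 reads). MEG8, which had no SD, moved to 93.5% (2000 bp), above its Wilson interval of 52.4% to 92.4%. DLK1 to MEG3 moved to 85.2% without peaks, 86.0% with equal weights and 71.3% with CpGs of at least 3 reads, and the 10 to 20 kb before MEG3 to 86.3% with the deepest CpG of each 150 bp. The whole region moved to 72.1% (equal weights), 70.6% (deepest CpG) and 39.9% (at least 3 reads). Region minus rest was 0.803 points against chromosome 14, -3.09 with equal weights and 0.726 with at least 3 reads. The cause of these moves was not tested.

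Of the 11 peaks, 4 were above the median significance of the list. The count of starts that differed between replicates, 4996, was 3080 at 250 bp and 1 with the deepest CpG, where the DIO3 difference reversed to -2.53 points. The count of starts between the limits, 1224, was 550 (at least 50 reads), 755 (250 bp), 1885 (1000 bp) and 635 (30% to 70%), and the 3 such starts of other imprinted genes became 1 (250 bp) and 0 (30% to 70%).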

Other observations

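The longest CpG-dense unmethylated block of the region lies in no annotated gene. It spans 3 kb, chr14:101456892-101459891, with 281 CpGs, and ends 101.6 kb before the DIO3 start. It read 4.40% of 455 reads in replicate 1 and 3.70% of 946 reads in replicate 2, a mean of 4.05% ± 0.492 (SD, n = 2). No peak lies in it, and the nearest summit is 18802 bp from its centre. The block was joined from neighbouring windows because they read under 20%, so its level is a description.

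Another such block begins 60 bp before the end of DIO3 and runs 2 kb, chr14:101563392-101565391. It read 0.515% of 194 reads in replicate 1 and 2.11% of 474 in replicate 2, again with no peak in it. Between this block and the unmethylated DIO3 start lies the window of the gene that read 85.0% and 90.2%. A further CpG-dense window between them, centred 1146 bp after the start, read 16.7% of 18 reads in replicate 1 and 43.8% of 64 in replicate 2.

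A CpG-dense window 6533 bp after the MEG3 start, in its body, read 43.3% of 30 reads in replicate 1 and 62.5% of 24 in replicate 2 and held no peak.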
